A study of Mus musculus with 10 samples.

Results

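The 9 genes described here encode DNA-binding factors and cofactors of the SIX-family and TEAD proteins. They are the SIX-family factors Six4 and Six5, the EYA cofactors Eya1 and Eya3, the TEAD factors Tead1, Tead2, Tead3 and Tead4, and the TEAD cofactor Vgll2. They were picked by name, with earlier results of these data known, and are 9 of the 23388 genes listed in all 4 deposited tables. Genes number 23417 in each Huwe1 table and 23431 in that of USP10.

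All samples were C2C12 cells, a mouse myoblast line that fuses into myotubes when serum is lowered, so the line is the only source of cells. The samples number 10, and their poly(A) RNA was sequenced after loss of Huwe1, a ubiquitin ligase, or gain of USP10, a deubiquitinase. Day 0 myoblasts in growth medium and cells after 6 days in differentiation medium were wildtype or carried 1 of 2 Huwe1 short hairpins, with the same pair of hairpins at both times by their labels. Day 8 myotubes received a non-targeting RNA, by their sample label, or 1 of another pair of Huwe1 hairpins, delivered by lentivirus to cells that were already differentiating. For myoblasts too, the methods list that second pair alone, so which pair the day 0 and day 6 cells carried rests on the labels. Cells after 6 days of differentiation that carried a USP10 cDNA driven by the EF1a promoter were set against a control column headed as a day 6 wildtype. Its header names the same wildtype reads as that of the day 6 control in the Huwe1 table, but its values are not the same. No sample label ties that column to a library, and the labels do not say whether the 2 control columns are separate libraries. The 2 knockdown libraries of a Huwe1 table are pooled in 1 column beside 1 control library, and the USP10 comparison sets 1 library's value against its control. Every difference below is therefore between single values, has no replicate check and carries no p-value.

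SIX-family proteins are homeodomain factors that bind MEF3 elements in muscle promoters, and EYA proteins, which do not bind DNA themselves, join them as coactivators and carry a phosphatase domain. TEAD proteins bind MCAT elements and depend on cofactors, which are YAP1 and TAZ (gene Wwtr1) at the output of the Hippo pathway and the VGLL proteins. Both families act in skeletal muscle formation, SIX-family factors upstream of and beside the MyoD family, and TEAD factors at genes of contractile and metabolic proteins.

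The hairpin target sequences given in the labels are printed because they define the knockdown. Each was found in transcripts of Huwe1, none matched another GENCODE transcript exactly, and so none matched any of the 9 genes.
Huwe1 hairpin 1, day 0 and day 6: gggaacctgtgattcgaga
Huwe1 hairpin 2, day 0 and day 6: gagaagaggacaactagta
Huwe1 hairpin 1, day 8: gcactcttcataactcacttt
Huwe1 hairpin 2, day 8: gcactgctcatcaaagatgtt

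The promoter windows of RefSeq (GRCm38.p6, 250 bases before to 50 bases after a start site) were searched on both strands for the MEF3 motif TCAGGTT, the MCAT motif CATTCC and the E-box CAGCTG, the site of MyoD family factors. Windows were given for 6 of the 9 genes, namely Six4, Six5, Eya3, Tead2, Tead3 and Vgll2. MEF3 was found in Six4 and MCAT in Tead3, and the E-box in none of the 6. Over all 32851 windows, 4.07% held MEF3, 14.7% held MCAT and 16.3% held the E-box. Counted by gene, as for the 6, these were 4.73%, 16.6% and 18.3% of 27025 genes. The Six4 match read on the other strand, and the Tead3 stretch shown holds a pair of MCAT matches, with others elsewhere in its windows. Both stretches are shown with the motif in capitals because they are the motifs of these factor families found at the members' own start sites. Each of them overlaps an annotated untranslated region of its gene. The 250 bases before the RefSeq start of Vgll2, at 52022502, are shown because Vgll2 had the widest range of levels among the 9 genes. None of the 3 motifs, as spelled above, lies there, and other spellings of the E-box were not searched. The position of Vgll2 given further below begins at 52022686, where its deposited locus starts.
Six4, chr12:73113324-73113353, minus strand: ggcctgggggaAACCTGAtcggccagatcc
Tead3, chr17:28350706-28350735, minus strand: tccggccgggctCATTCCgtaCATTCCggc
Vgll2, chr10:52022252-52022501, plus strand: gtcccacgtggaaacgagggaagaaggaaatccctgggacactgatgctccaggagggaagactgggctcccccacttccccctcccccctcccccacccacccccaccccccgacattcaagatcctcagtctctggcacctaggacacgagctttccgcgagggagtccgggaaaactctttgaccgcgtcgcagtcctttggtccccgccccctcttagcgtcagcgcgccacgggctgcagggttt

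Levels are in FPKM, a unit scaled for both transcript length and library size, so levels of different genes can be set side by side. The 4 tables were normalized separately, and levels set beside each other across tables are descriptions. Differences are log2 ratios of treated to control with 0.01 FPKM added to each value, which slightly understates the change of low values. A gene was counted as lower or higher at 2-fold or more, provided that it reached 1 FPKM in either column compared. Depth was estimated from what 1 fragment is worth in the lowest FPKM values and lay between 7750000 fragments, in the control of the USP10 table, and 30100000, in the day 6 control. Totals of the pooled columns were not estimated. In the columns of 1 library, every one of the 9 genes rested on at least about 18.2 fragments, counted for its shortest coding transcript. Huwe1 itself had log2 ratios of -1.33, -0.68 and -0.75 in the knockdowns of days 0, 6 and 8, of which the first alone passed 2-fold, and Usp10 had 1.89 with its overexpression. Usp10 was also higher in the day 6 Huwe1 knockdown, at 35.4 FPKM against 13.2 FPKM. The 4 myoblast markers (Myod1, Myf5, Des and Itga7) summed to between 238 and 2252 FPKM in every column. Of 9 markers of endothelial cells, white blood cells and adipocytes, 6 (Pecam1, Kdr, Ptprc, Cd3e, Adipoq and Plin1) were under 1 FPKM in every column, and Cdh5, Cd68 and Fabp4 reached at most 13.5, 4.65 and 4.68 FPKM.

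Six4, a SIX-family homeodomain factor that acts on myogenic genes, lies on chromosome 12 from 73100259 to 73113245 (mm10, minus strand). At day 0 the control had 5.99 FPKM of Six4 and the knockdown 5.44 FPKM. At day 6 the control had 10.7 FPKM and the knockdown 3.62 FPKM, and at day 8 they had 13.8 and 12.4 FPKM. USP10 cells had 3.31 FPKM and their control 6.58 FPKM. The log2 ratio of Six4 was -1.56 in the day 6 knockdown, against -0.14 at day 0 and -0.15 at day 8, and -0.99 with USP10, just short of 2-fold. The lowest Six4 levels of the 8 columns were those of the day 6 knockdown and of USP10 overexpression, both under the day 0 myoblast level.

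Six5, a SIX-family factor next to the myotonic dystrophy kinase gene Dmpk, lies on chromosome 7 from 19094544 to 19098345 (mm10, plus strand), 723 bases beyond the end of Dmpk. It was the lowest of the 9 genes in 7 of the 8 columns, the exception being the day 8 knockdown, where Vgll2 was lower. At day 0 the control had 0.489 FPKM of Six5 and the knockdown 0.522 FPKM, both under the minimum of 1 FPKM, so it was not counted at day 0. At day 6 the control had 0.368 FPKM and the knockdown 1.02 FPKM, at day 8 the control had 1.03 FPKM and the knockdown 2.13 FPKM, and USP10 cells had 1.12 FPKM beside 1.01 FPKM in their control. The log2 ratios of 1.44 at day 6 and 1.04 at day 8 passed 2-fold, and the 0.14 with USP10 did not. With 0.1 FPKM added in place of 0.01 FPKM the day 8 ratio of Six5 was 0.98, under 2-fold.

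Eya1 and Eya3 are SIX-binding coactivators with a tyrosine phosphatase domain. Eya1 (chromosome 1, 14168958 to 14310199, mm10, minus strand) had 4.79 FPKM at day 0 without knockdown and 5.47 FPKM with it. It had 4.81 and 7.96 FPKM at day 6, 3.56 and 10.5 FPKM at day 8, and 9.72 and 12.3 FPKM in the USP10 comparison, with the control named first. In all 4 tables the treated column held more Eya1 than its control. The log2 ratios were 0.19, 0.73, 1.56 and 0.34 in that order, so the day 8 knockdown alone passed 2-fold.

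Eya3 (chromosome 4, 132639046 to 132724763, mm10, plus strand) had 13.7 and 13.3 FPKM at day 0 and 15.9 and 8.30 FPKM at day 6, again control first. It had 15.9 and 17.9 FPKM at day 8, and 13.3 and 11.2 FPKM in the USP10 comparison. No Eya3 ratio reached 2-fold, and the farthest from 0 was -0.93 in the day 6 knockdown. Eya1 made up 23.3% of the summed Eya1 and Eya3 FPKM in the day 6 control and 48.9% in the day 6 knockdown. At day 8 that share was 18.3% of the control and 37.1% of the knockdown sum, and in the USP10 comparison it was 42.2% and 52.4%.

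**Figure D1:**
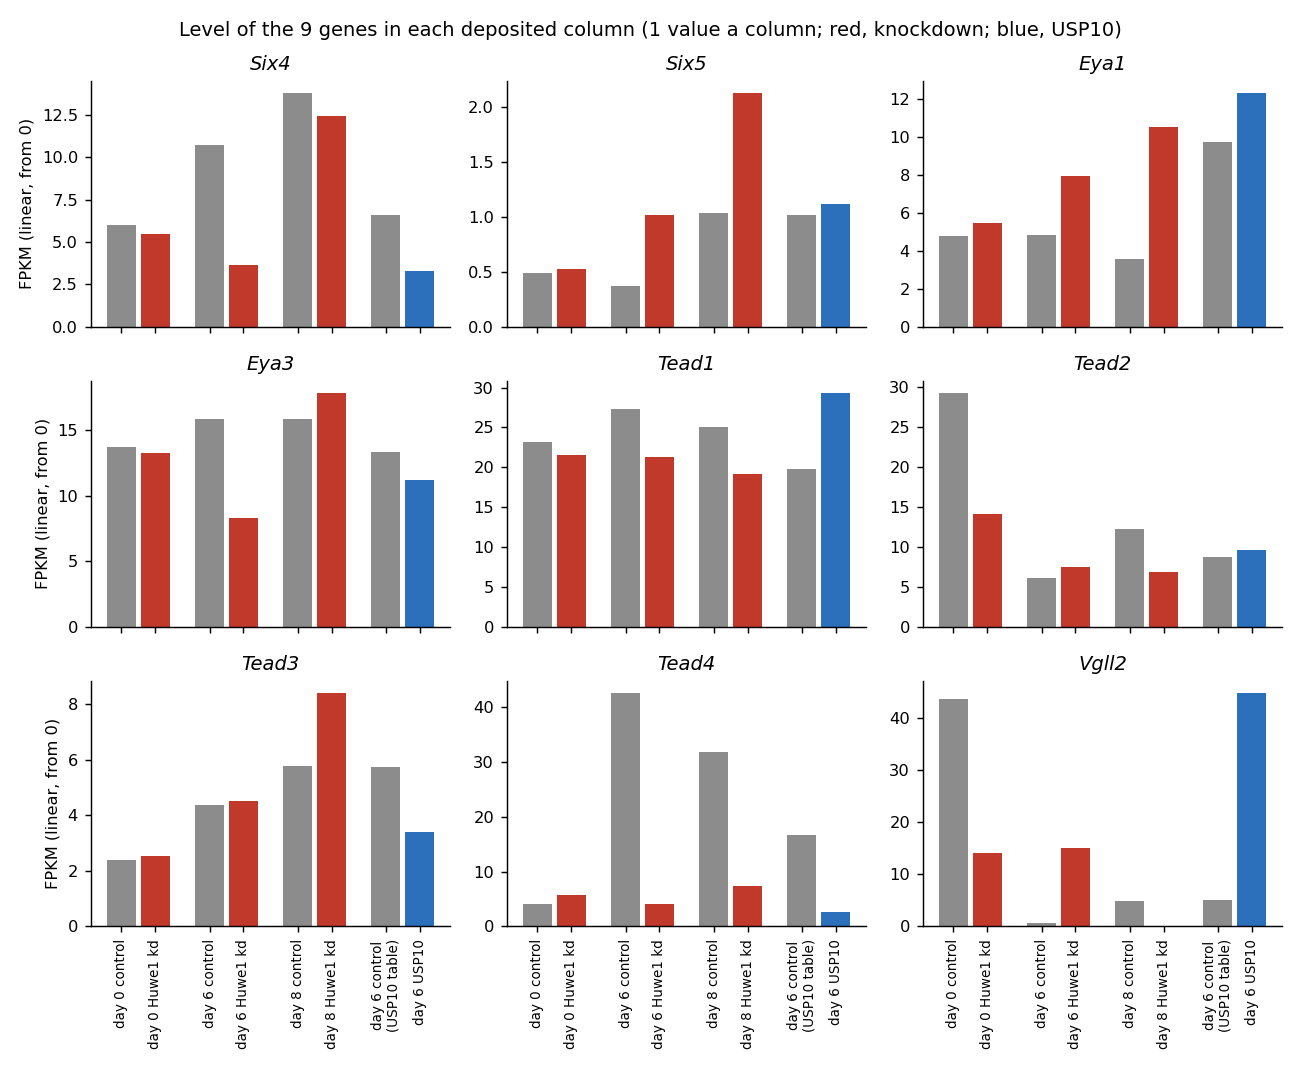
Level in FPKM (linear axes from 0, a separate scale for each gene) of the 9 genes in the 8 deposited columns, with grey bars for controls, red for Huwe1 knockdown and blue for USP10 overexpression, 1 value a column and no error bars. Tead4 stands highest in the day 6 control at 42.6 FPKM, and Vgll2 reaches 43.6 FPKM in control myoblasts and 44.9 FPKM with USP10.

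Tead1, the founding TEAD factor of MCAT elements (chromosome 7, 112679320 to 112906805, mm10, plus strand), had 23.1 FPKM in control myoblasts and 21.6 FPKM after knockdown. It had 27.2 and 21.2 FPKM at day 6, 25.1 and 19.2 FPKM at day 8, and 19.7 and 29.4 FPKM in the USP10 comparison. No Tead1 ratio reached 2-fold in any of the 4 tables. They ran from -0.39 in the day 8 knockdown to 0.57 with USP10, the narrowest range of the 4 Tead genes.

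Tead2, a family member known from embryonic and proliferating cells (chromosome 7, 45215753 to 45233619, mm10, plus strand), had 29.3 FPKM in control myoblasts and 14.1 FPKM after knockdown at day 0, a log2 ratio of -1.06. At day 6 the control had 6.13 FPKM and the knockdown 7.47 FPKM. They had 12.2 and 6.78 FPKM at day 8, and the USP10 comparison 8.75 and 9.64 FPKM. The day 0 control held the highest Tead2 level of the 8 columns, and the day 0 knockdown was the sole one of the 4 treated columns in which Tead2 passed 2-fold. Of all genes counted at day 0, 3.24% lay as far from 0 as Tead2 or farther.

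Tead3 (chromosome 17, 28331673 to 28350805, mm10, minus strand) is a TEAD factor best known from placenta. It had 2.40 and 2.53 FPKM at day 0, 4.36 and 4.53 FPKM at day 6, 5.78 and 8.41 FPKM at day 8, and 5.73 and 3.40 FPKM in the USP10 comparison. The ratios of Tead3 were 0.07, 0.05, 0.54 and -0.75, none of them 2-fold.

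Tead4, the family member known as a target of MyoD and myogenin in differentiating muscle cells, lies on chromosome 6 from 128227143 to 128300813 (mm10, minus strand). Control myoblasts had 4.15 FPKM of Tead4 and knockdown myoblasts 5.67 FPKM. At day 6 the control had 42.6 FPKM and the knockdown 4.10 FPKM, and at day 8 they had 31.8 and 7.44 FPKM. USP10 cells had 2.66 FPKM and their control 16.6 FPKM. All 3 differentiated control columns were at 16.6 FPKM or more, and every other column, treated or undifferentiated, was at 7.44 FPKM or less. The log2 ratios were 0.45 at day 0, -3.38 at day 6, -2.10 at day 8 and -2.64 with USP10, which is 10.4-fold, 4.27-fold and 6.24-fold lower in the 3 differentiated comparisons. Genes as far from 0 as Tead4, or farther, made up 6.64%, 5.84% and 5.62% of those counted in these comparisons.

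Together the 4 Tead genes summed to 59.0, 80.4 and 74.9 FPKM in the controls of days 0, 6 and 8. The sum was 43.8, 37.3 and 41.8 FPKM in the knockdowns of these days, and with USP10 it was 45.0 FPKM beside 50.9 FPKM in its control. Tead2 led in the day 0 control with 49.7% of the sum, while Tead4 led in the day 6 and day 8 controls with 53.0% and 42.5%. In the control of the USP10 table Tead1 was first with 38.8% and Tead4 next with 32.7%. Tead1 led in all 4 treated columns, with 49.2% at day 0, 56.9% at day 6, 45.9% at day 8 and 65.2% with USP10. The Tead4 share was 42.1 percentage points below the control in the day 6 knockdown, 24.7 points below at day 8 and 26.8 points below with USP10, whereas it was 5.90 points above in the day 0 knockdown. A share within 1 column does not depend on the scaling between columns.

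**Figure D2:**
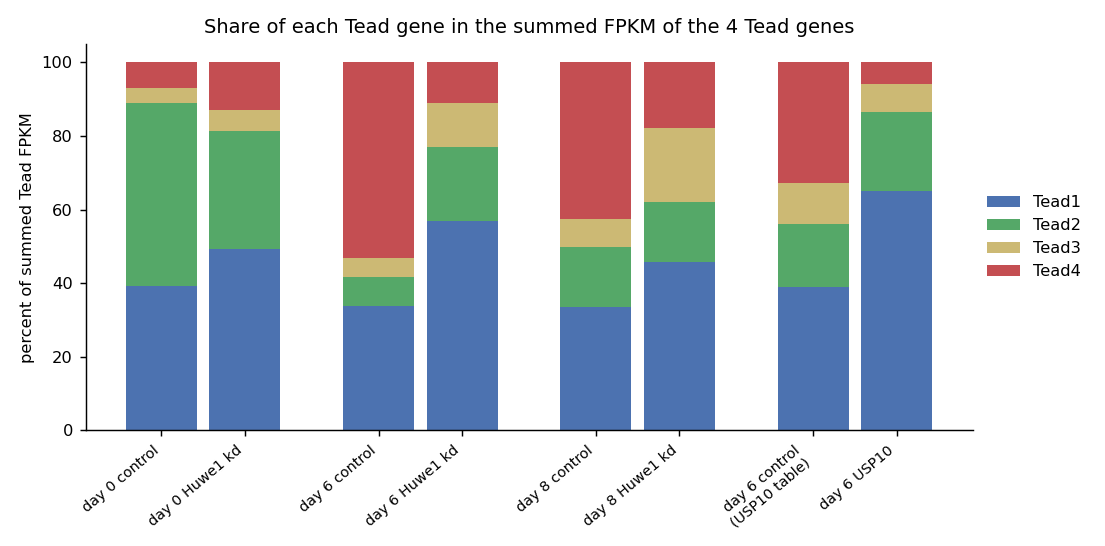
Percent of the summed FPKM of Tead1, Tead2, Tead3 and Tead4 held by each gene in the 8 deposited columns (stacked bars from 0 to 100%, 1 value a column). The Tead4 part is 53.0% in the day 6 control and 11.0% in the day 6 knockdown, and 32.7% and 5.91% without and with USP10.

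Vgll2 encodes a vestigial-like cofactor of TEAD proteins that is made in the skeletal muscle lineage. It lies on chromosome 10 from 52022686 to 52028471 (mm10, plus strand). Control myoblasts had 43.6 FPKM of Vgll2 and knockdown myoblasts 14.1 FPKM, a log2 ratio of -1.63. At day 6 the control had 0.627 FPKM and the knockdown 15.1 FPKM, a log2 ratio of 4.57. At day 8 the order was the reverse, with 4.82 FPKM for the control and 0.0458 FPKM for the knockdown. USP10 cells had 44.9 FPKM and their control 5.09 FPKM, a log2 ratio of 3.14. Vgll2 was thus past 2-fold in all 4 tables, lower in the day 0 and day 8 knockdowns and higher in the day 6 knockdown and with USP10. Genes as far from 0 as Vgll2, or farther, made up 1.31% at day 0, 4.04% at day 6, 0.72% at day 8 and 4.42% with USP10.

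The lowest values of the pooled day 8 knockdown column cluster, and that cluster was taken as 1 fragment of 1 of its libraries. On this assumption the Vgll2 value there is worth 1.60 to 2.73 fragments, depending on the transcript, and was taken as 3. On these counts it was 105-fold under the control, with a 95% Poisson interval of 36.0-fold to 510-fold that covers the counting error of the knockdown value alone. The fitted log2 ratio of -6.44 depends on the amount added, and was -2.48 with 1 FPKM added. The day 6 and day 8 knockdowns also differ, by their labels, in hairpins, in the time of infection and in their control.

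Across the controls, which stand in separate tables, the log2 ratio of day 6 to day 0 was 3.36 for Tead4, -6.10 for Vgll2 and -2.26 for Tead2. These were 2 genes lower and 1 higher of the 8 counted, while 23.2% of all genes were lower and 21.5% higher. Six4 and Tead3, at 0.84 and 0.86, were short of 2-fold, and Eya1, Eya3 and Tead1 lay between 0.01 and 0.24. The members' median log2 ratio was 0.22, beside -0.05 for all genes. From day 6 to day 8, Six5 was 1.47 higher and Vgll2 2.92 higher, and 0 of the 9 genes were lower, beside 13.8% of all genes higher and 5.81% lower. Both calls rest on which day 6 control is used. With that of the USP10 table, centred on the median gene, Six5 was -0.13, Vgll2 was -0.24 and 1 gene (Eya1, -1.60) was lower. No share of all genes is given for that exchange.

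In the day 0 knockdown, 2 of the 8 genes counted (Tead2 and Vgll2) were at least 2-fold lower and 0 higher, where 1.69% of all genes were lower and 1.90% higher. The members' median log2 ratio was -0.07, beside 0.00 for all genes. All 4 myoblast markers were lower in the same column, with a median log2 ratio of -0.95 and Myod1 (-1.22) past 2-fold, and summed to 468 FPKM in control and 238 FPKM in knockdown cells. Their part in the levels of Tead2 and Vgll2 was not tested. In the day 6 knockdown, 2 of 9 were lower (Six4 and Tead4) and 2 higher (Six5 and Vgll2), where 13.4% of all genes were lower and 17.6% higher, and the medians were 0.05 and -0.01. The members' median turned to -0.36 with a minimum of 5 FPKM and to -0.34 against the other day 6 control. The day 8 knockdown again had 2 of 9 lower (Tead4 and Vgll2) and 2 higher (Six5 and Eya1), where 10.0% of all genes were lower and 7.89% higher, with medians of -0.15 and 0.00. With USP10, 1 of 9 was lower (Tead4) and 1 higher (Vgll2), where 10.0% of all genes were lower and 9.70% higher, with medians of 0.14 and 0.05. At day 6 and with USP10 the members' counts are near the share of all genes, which says nothing particular about the list. At day 8 the counts fell to 1 lower with a minimum of 5 FPKM and to 1 higher with 0.1 FPKM added. The day 8 Vgll2 call rests on a value taken as 3 fragments, so those counts are not read as particular to the list either.

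**Figure D3:**
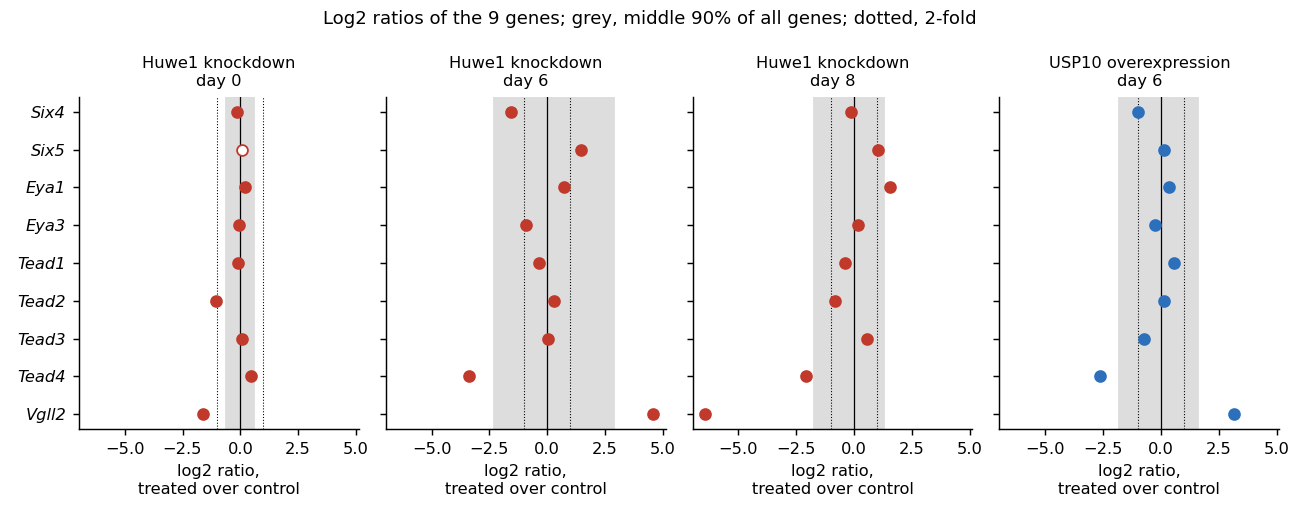
Log2 ratio of treated to control FPKM of each gene in the 4 within-table comparisons (points, 1 value each, open where the gene was under 1 FPKM in both columns), with the middle 90% of all genes in grey and 2-fold as dotted lines. Tead4 lies at -3.38, -2.10 and -2.64 in the 3 differentiated comparisons, and Vgll2 lies on either side of 0.

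Markers of differentiated muscle and of connective tissue differed in the same columns. All 5 markers of differentiated muscle cells (Myog, Tmem8c, Ckm, Actc1 and Tnnt3) were at least 2-fold lower in the day 6 knockdown, the day 8 knockdown and with USP10. Their summed level was 8529 FPKM without and 981 FPKM with knockdown at day 6, 6566 and 1077 FPKM at day 8, and 3117 and 832 FPKM without and with USP10. All 7 fibroblast or mesenchymal markers were at least 2-fold higher in the day 6 knockdown, with sums of 125 FPKM in control and 4518 FPKM in knockdown cells, and 4 of 7 were higher with USP10, with sums of 511 and 4130 FPKM. At day 8 these markers summed to 508 and 802 FPKM, with 2 of the 6 counted higher (Pdgfra and Dcn) and 1 lower (Ly6a). The part of these markers in the levels of Tead4, Six4 and Vgll2 was not tested. In bulk RNA, fewer cells of a type and less RNA per cell cannot be told apart.

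Eya4, a further EYA coactivator, stood at 2.54 and 5.37 FPKM at day 0, 43.3 and 5.12 FPKM at day 6, 36.1 and 29.9 FPKM at day 8, and 42.7 and 5.14 FPKM without and with USP10. Its log2 ratios were 1.07, -3.08, -0.27 and -3.05, so Eya4 was low beside Tead4 in the day 6 knockdown and with USP10 but not 2-fold lower at day 8.

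Of the TEAD cofactors, Yap1 and Wwtr1, which carry the Hippo signal, and Vgll3 did not reach 2-fold in any of the 4 tables. Yap1 ran from 24.5 FPKM in the day 6 control to 33.9 FPKM in the day 6 knockdown, and Wwtr1 from 22.8 FPKM in the day 8 knockdown to 50.5 FPKM in the control of the USP10 table. Vgll3, a relative of Vgll2, had 26.7 FPKM at day 6 without and 53.1 FPKM with knockdown, a log2 ratio of 0.99. Against the other day 6 control, centred on the median gene, Vgll3 was 0.51 in that knockdown. With USP10 its centred ratio was 0.57 against its own control and 1.04, past 2-fold, against the other. Vgll4, a VGLL protein that competes with YAP1 for TEAD, was 2-fold lower with USP10, at 11.9 FPKM without and 5.48 FPKM with it, but -0.78 against the other day 6 control. Vgll1 was listed at 0 in all 4 tables.

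Among the Hippo kinases and scaffolds, 0 of 17 genes passed 2-fold in the day 0 knockdown and 0 of 16 at day 8. Of all genes, 1.69% were lower and 1.90% higher at day 0, and 10.0% lower and 7.89% higher at day 8. In the day 6 knockdown 1 of 16 was lower and 2 were higher, where 13.4% of all genes were lower and 17.6% higher. Amot, a scaffold that binds YAP1, had a log2 ratio of -2.19, and the kinase gene Lats1 and the scaffold gene Frmd6 had 1.61 and 1.56. Against the other day 6 control Amot and Frmd6 stayed past 2-fold (-1.56 and 1.18), and Lats1 did not (0.75). With USP10, 1 of 17 was lower, again Amot at -2.23, and 1 was higher, Wwc1, whose level was 1.15 FPKM with USP10 and 0.301 FPKM without. There 10.0% of all genes were lower and 9.70% higher. Against the other day 6 control, centred on the median gene, 2 were lower (Amot and Mob1b) and 3 higher (Lats1, Frmd6 and Wwc1) with USP10. No share of all genes is given for that exchange.

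Of 18 genes counted that YAP1 and TEAD proteins are known to activate, 9 were at least 2-fold higher in the day 6 knockdown. There 3 (Igfbp3, Ankrd1 and Gadd45a) were lower, and the list median was 0.90. Of all genes, 17.6% were higher and 13.4% lower in that comparison. Against the other day 6 control, centred on the median gene, 3 were higher (Ctgf, Asap1 and Myof) and 5 lower, with a median of -0.14, so the direction of the list depends on the control. Ctgf, a matricellular growth factor widely used as a readout of YAP1, had 260 FPKM in the knockdown, above both the 6.04 FPKM of its own control and the 42.1 FPKM of the other. The coagulation factor gene F3 went from 0.146 to 10.6 FPKM, but had 19.4 FPKM in the other control. Asap1 and Crim1 had log2 ratios of 2.99 and 2.96 against their own control and 1.54 and 0.22 against the other. In the other tables there were 1 higher of 16 at day 0 (Ctgf, 1.71), 1 higher (Crim1, 2.68) and 2 lower (F3 and Ankrd1, -1.79 and -1.24) of 18 at day 8, and 1 higher (Ctgf, 1.50) and 2 lower (Igfbp3 and Ccdc80, -3.63 and -1.29) of 18 with USP10. The shares of all genes higher and lower there are those given for the 9 genes. Against the other day 6 control, 8 were higher and 3 lower with USP10. No share of all genes is given for either exchange of controls. Several of these genes are also abundant in fibroblasts, whose markers were higher in the same day 6 knockdown column. The part of those markers was not tested.

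Muscle genes with known MEF3 or MCAT elements were counted in the comparisons in which Tead4 was 2-fold lower. In the same comparisons all 5 markers of differentiated muscle cells were lower too. Of 6 such genes, 5 were at least 2-fold lower in the day 6 knockdown, 4 in the day 8 knockdown and 3 with USP10, and 0 were higher, with list medians of -2.40, -1.53 and -1.35. Of all genes, 13.4%, 10.0% and 10.0% were lower in these comparisons and 17.6%, 7.89% and 9.70% higher. Against the other day 6 control, 4 were lower in the knockdown and 6 with USP10, and 0 higher, with no share of all genes given for that exchange. Myog, the myogenin gene, went from 619 to 27.1 FPKM in the day 6 knockdown and from 305 to 28.8 FPKM with USP10. Myh7, the slow myosin heavy chain gene, had log2 ratios of -4.17 and -6.74 in these comparisons, and Ckm, muscle creatine kinase, had -2.60 and -2.27. At day 0, where 3 of the 6 reached 1 FPKM, the cardiac troponin T gene Tnnt2 was lower, at -1.18. Myog and Ckm are also among the markers of differentiated muscle cells above. The part of those markers in these counts was not tested.

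**Figure D4:**
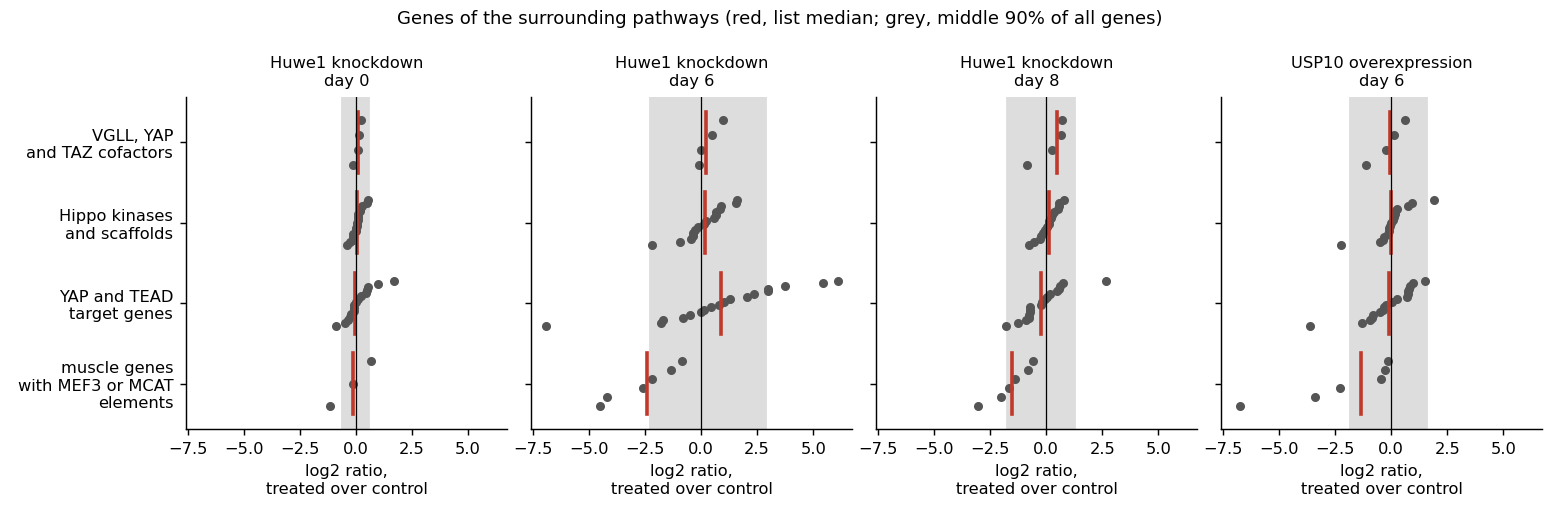
Log2 ratio of treated to control FPKM of the genes that reached 1 FPKM, in 4 lists around these factors (grey points, 1 gene each, red lines for list medians), in the 4 within-table comparisons, with the middle 90% of all genes shaded. The widest spread is that of the YAP and TEAD target genes in the day 6 knockdown, with a median of 0.90, and the muscle genes lie below 0 in the 3 differentiated comparisons.

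The 2 day 6 control columns differ from each other by as much as some of the ratios above. After centring on the median gene, 4 of the 9 genes (Six5, Eya1, Tead4 and Vgll2) were at least 2-fold apart between them, as were 19.9% of all genes. Vgll2 was 3.07 log2 units higher and Tead4 1.29 lower in the control of the USP10 table, and Six5 and Eya1 were 1.51 and 1.08 higher. The markers differed as well, since those of differentiated muscle summed to 3117 FPKM in that column and 8529 FPKM in the other. Both headers name the same wildtype reads, and the labels do not say whether these are separate libraries. The estimated depth was 7750000 fragments in the control of the USP10 table and 30100000 in the other. The shallower column nonetheless held more Vgll2 fragments, about 65.1 against 31.1 for its longest coding transcript. By these estimates the shallower column does not hold a subset of the other's reads. Which of these controls is the better match for a treated column cannot be told from the labels.

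With the controls exchanged and the ratios centred, Tead4 was -2.08 in the day 6 knockdown and -3.99 with USP10, and Vgll2 was 1.51 and 6.15. Within each experiment, both genes thus passed 2-fold in 1 direction against either control. Six4 was -0.92 in the knockdown and -1.68 with USP10. Six5 was -0.053 in the knockdown against the other control, so that its higher level at day 6 is lost there, and it was 1.59 with USP10. Eya1 was 1.37 with USP10 against the other control. Eya1, Tead1, Tead2 and Tead3, which were under 2-fold in the knockdown against either control, lay on the other side of 0 when it was exchanged. These exchanged comparisons cross tables that were normalized separately.

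**Figure D5:**
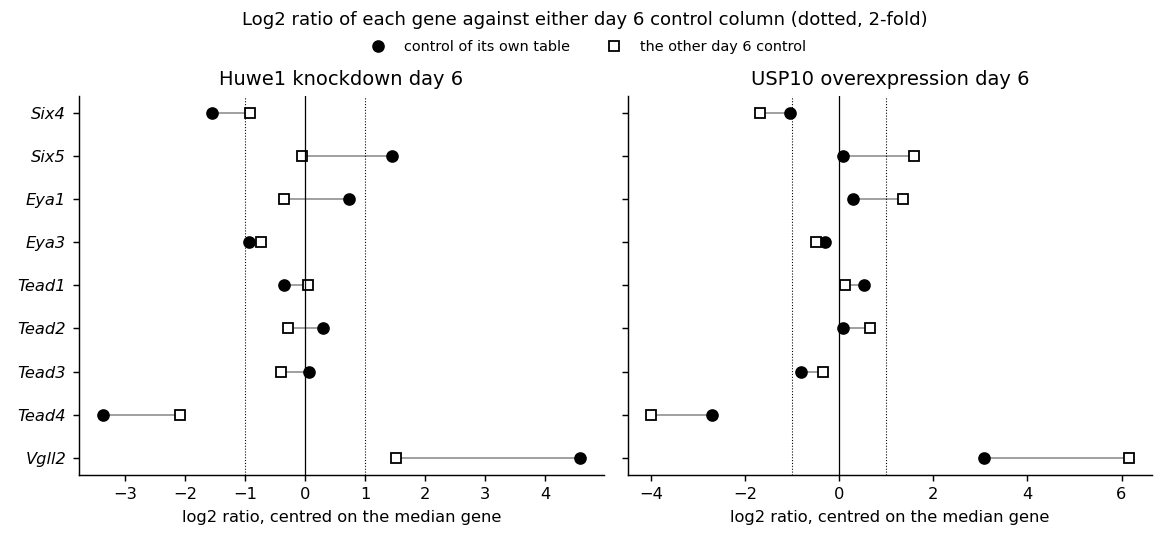
Log2 ratio, centred on the median gene, of each gene in the day 6 Huwe1 knockdown (left) and with USP10 overexpression (right), against the control of its own table (filled circles) and the other day 6 control (open squares), 1 value each, with 2-fold as dotted lines. Tead4 and Vgll2 lie past 2-fold on the same side with both controls, and the Six5 squares and circles lie on different sides of 2-fold.

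Genes whose levels followed those of a member over the 8 columns were ranked by Pearson correlation of log2(FPKM + 1), among the 10181 genes that reached 5 FPKM in some column. The columns come from 4 tables normalized separately and hold control and treated cells of the same days, so the correlations are descriptions. For Tead4 the closest were Syt12 (r = 0.99), Sccpdh (0.99) and Sgcd (0.98), the last a sarcoglycan gene of the muscle membrane complex. Mtr and Ier2 were among the 3 closest to Six4 (both 0.99), and the closest to Eya3 were Timm44 (0.98), Heatr1 (0.97) and Abcc1 (0.96). For Vgll2 they were Rcn1 (0.97), Ezr (0.96) and Rhoc (0.96), and for Tead3 Pi4kb, Sash1 and Bbx (0.99, 0.98 and 0.98). Tead2 was closest to Actr1a, Mlf2 and Prep (all 0.95), Eya1 to Gm2022, Ddit3 and Tpp1 (0.97, 0.96 and 0.94), and Tead1 to Ube2v1, Atp5e and Mad2l1bp (0.92, 0.92 and 0.91). Six5 was under 5 FPKM in every column and was not ranked. Among the 9 genes themselves the closest pair was Six4 and Eya3 (0.88), followed by Six4 and Tead4 (0.77) and Six5 and Tead3 (0.77), and Vgll2 ran opposite to Six4 (-0.80), Tead3 (-0.78) and Tead4 (-0.68).

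Other annotated genes overlap 3 of the loci. These are Gm22616 and Gm37444 at Eya1, 2310014F06Rik and Gm44462 at Tead1, and Gm21893, a processed pseudogene, at Tead4. The library kit keeps strand, but whether fragments were counted by strand is not given in the sources used here, so reads of these genes and of their opposite-strand partners may not be separated.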

How the data were processed

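Libraries of oligo(dT)-selected RNA were prepared with a directional kit (ScriptSeq v2) and sequenced on an Illumina HiSeq instrument by the authors. Reads were mapped with Tophat according to the methods, and the submitters' processing notes name Bowtie2, Cuffdiff and mm10. Versions and the gene annotation are not given in the sources used here. The deposited tables hold 1 FPKM value per gene and condition, estimated by the authors with Cuffdiff, and also the log2 fold change, test statistic, p-value and q-value of the authors' own comparisons, which were not used. All 8 FPKM columns were used, and every value of the 9 genes had a completed estimate.

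Log2 ratios were computed within a table with 0.01 FPKM added. Genes with at least 1 FPKM in 1 column were counted at 2-fold. Control days were compared across tables as a description. With 1 value per condition no test was possible. The pseudocount, the minimum, centring and the choice of day 6 control were varied, the last for the pathway lists only after seeing the data. All 9 genes are named, together with up to 4 genes per pathway list and comparison, those with the largest ratios past 2-fold with at least 5 FPKM in 1 column. Further genes (among them Yap1, Wwtr1, Vgll3, Wwc1, Igfbp3, Ankrd1 and Gadd45a) were chosen after they were seen. Some list genes are not reported here. The genes and lists were chosen with earlier results of these data known. The computations were tested on data simulated for the day 6 knockdown from its control column. Of 200 changed genes 199 were recovered and 0 unchanged genes were counted, over 10801 genes. This checks the computation and not how far control columns differ. Between the 2 day 6 control columns 19.9% of all genes were at least 2-fold apart. Depth gives counting error only, and the estimate was possible for 5 of the 8 columns. Locus starts, counted from 0 in the files, are given counted from 1. Python 3.11.15, numpy 2.4.6, pandas 2.3.3, scipy 1.17.1 and matplotlib 3.10.9 were used.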

Additional observations from a re-analysis of the deposited data

Results flagged for a closer look

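Vgll2 stood out because its difference between Huwe1 knockdown and control changed direction from one time to the next. It was lower in the day 0 knockdown (43.6 FPKM in the control, 14.1 FPKM in the knockdown) and higher in the day 6 knockdown (0.627 and 15.1 FPKM), and the log2 ratio at day 6 minus that at day 0 was 6.20. At day 8 it was lower again (4.82 and 0.0458 FPKM), and the ratio at day 8 minus that at day 6 was -11.0. Each side is 1 value, so neither difference was tested. Centred on the median gene, the day 6 ratio was 4.57 against its own control and 1.51 against the other day 6 control. The day 8 knockdown value is worth 1.60 to 2.73 fragments, and its ratio depends on the amount added, so the size of both differences is uncertain. By their labels, the day 8 samples had other hairpins and another control than those of days 0 and 6.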

How the results depend on the processing

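No paired analysis was possible because the tables hold no replicate values, and for the same reason no replicate could be left out. The counts of the 9 genes past 2-fold moved as follows, with no share of all genes given for these settings. With 1 FPKM added, 1 gene was higher in the day 6 knockdown, 1 in the day 8 knockdown and 1 from day 6 to day 8 in controls, and 2 genes differed between the day 6 controls, an alternative chosen after seeing the data. With 0.1 FPKM added, 1 gene was higher at day 8. With a minimum of 5 FPKM, 1 was higher at day 6, 1 lower and 1 higher at day 8, and 0 were higher from day 6 to day 8, and 3 differed between the day 6 controls. With 1 FPKM required in both columns, which removes Six5 and Vgll2 where either column was low, 0 were higher at day 6, 1 was lower at day 8, 1 was lower from day 0 to day 6, and 0 were higher from day 6 to day 8. Centring on the median gene gave 2 lower with USP10, since Six4 moved to -1.04. The members' median changed sign to -0.36 in the day 6 knockdown with either of these minimums, to -0.054 with USP10 at the minimum of 5 FPKM, and to 0.011 in the day 8 knockdown with 1 FPKM in both columns.

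The other day 6 control was also used, with centring on the median gene. In the knockdown 1 gene was then lower and 1 higher, with a median of -0.34. There were 2 lower and 3 higher with USP10, and 4 higher from day 0 to day 6. From day 6 to day 8, 1 was lower and 0 higher. No share of all genes is given for these exchanged counts, so they are not read as particular to the list. The Tead4 share, which needs no centring, moved by -21.8 points in the knockdown, -47.1 with USP10 and 25.7 from day 0 to day 6, and from day 6 to day 8 it reversed from -10.5 to 9.79 points. Six5 reversed to -0.053 in the day 6 knockdown and to -0.13 from day 6 to day 8, and Vgll2 reversed to -0.24 from day 6 to day 8. The causes were not tested. Of 132 alternatives to counts, medians and shares, the other 102 left a count unchanged or kept the sign of a median or share. Of 330 alternatives to single ratios, 315 neither crossed 2-fold nor turned a ratio past 2-fold around. The shallowest column, the control of the USP10 table, limits Six5 most.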
